A study of Homo sapiens with 6 samples.

Results

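THY1 and NGFR, a pair of surface proteins used to mark fibroblasts and stellate cells, were followed in LX-2, a line derived from human hepatic stellate cells. Each gene was read from the counts of non-coding rows whose exons overlap, by at least 50 bp, its exons and those of no other gene on the opposite strand. They are 2 of the 1440 genes that could be tested in this opposite-strand reading, which held 1696 genes in all, against 62754 gene rows in the deposited tables. The pair was chosen by its known roles and by its levels in the opposite-strand reading, so those levels and their fold changes are given as a description, without a test. The cells were labelled wild type (WT) and were exposed for 24 h to FEBJ, an extract of Brucea javanica fruit and therefore a mixture of compounds, to cynaroside, which is luteolin carrying a glucose, or to DMSO as the control. Each group had 2 libraries of total RNA, 6 in all, and no dose is labelled. Separate cultures are not stated, so p-values measure the spread between these libraries only, which may be technical.

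THY1 is a small glycoprotein of the immunoglobulin superfamily, held in the outer leaflet of the plasma membrane by a glycosylphosphatidylinositol (GPI) anchor. It binds integrins and the adhesion receptor ADGRE5 on neighbouring cells, and in the liver it is known as a marker of portal fibroblasts and myofibroblasts. NGFR is the low-affinity neurotrophin receptor of the TNF receptor superfamily. Its extracellular part is built of cysteine-rich repeats that bind BDNF and the other neurotrophins, and its intracellular part carries a death domain that recruits adaptor proteins. Hepatic stellate cells are known to carry NGFR, and it is used to identify them.

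The rows that stand for the 2 genes differ in where they lie. THY1 (ENSG00000154096), on the minus strand of chromosome 11, was read from THY1-AS1 (ENSG00000263873) alone. All 632 bp of its exons lie opposite THY1 exons and none lies opposite coding bases, since the row falls in the last exon, in the 3′ untranslated region. The same row lies within the span of USP2-AS1, a longer gene on its own strand, which held 67 and 47 counts with FEBJ, 10 and 60 with cynaroside and 18 and 22 with DMSO. NGFR (ENSG00000064300), on the plus strand of chromosome 17, was read from the sum of NGFR-AS1 (ENSG00000249906) and ENSG00000279036, a row with no symbol. Of the 1221 bp of NGFR-AS1 exons, 202 bp (16.5%) lie opposite NGFR exons, 773 bp lie in NGFR introns and 246 bp lie outside the gene. Of the 3578 bp of ENSG00000279036, 924 bp (25.8%) lie opposite NGFR exons, 1584 bp lie in introns and 1070 bp lie outside the gene. Most of the length of both NGFR rows is therefore not opposite NGFR exons, whereas the THY1 row is wholly opposite a THY1 exon.

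**Figure D1:**
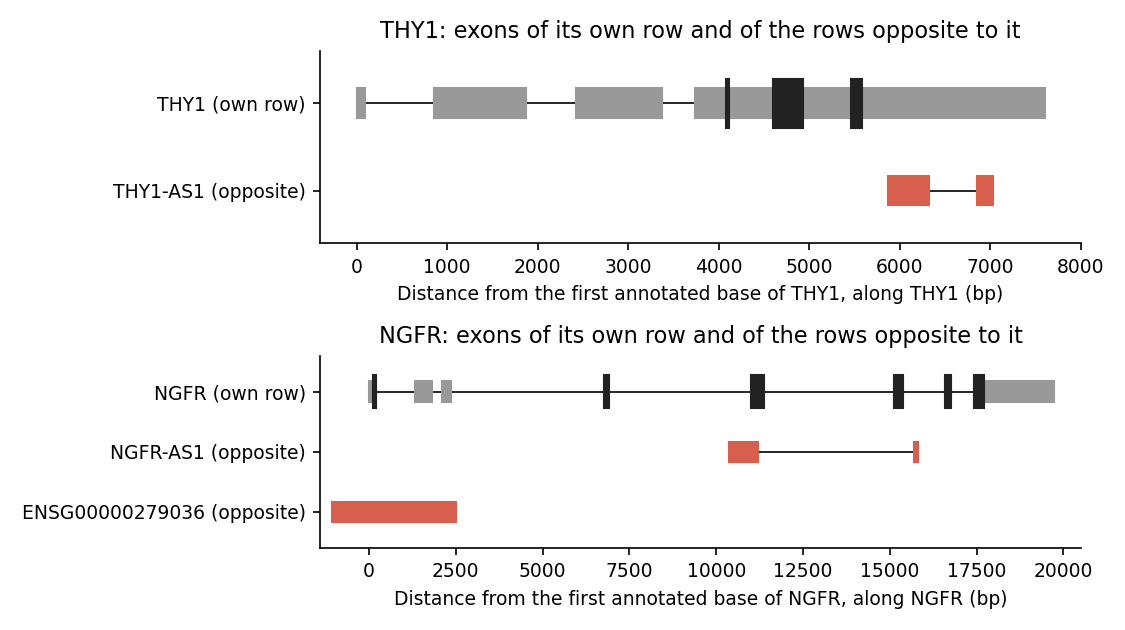
Maps of THY1 and NGFR, with the distance from the first annotated base of each gene in bp on the x axis. Grey boxes are exons of the gene's own row, black boxes its coding bases and red boxes the exons of the opposite rows. The THY1 row lies inside the last THY1 exon, past the coding bases, and the 2 NGFR rows reach into introns. The 246 bp of NGFR-AS1 that lie outside NGFR are beyond the plotted range.

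The coding bases of NGFR that lie opposite NGFR-AS1 are shown because they mark which part of the receptor this row touches. They are read 5′ to 3′ on the NGFR strand of GRCh38, from GENCODE release 29.
The stretch opposite NGFR-AS1 is chr17:49506299-49506500 in exon 3, 202 bases on the plus strand, with the 9 in-frame cysteine codons in capitals.
NGFR coding stretch opposite NGFR-AS1: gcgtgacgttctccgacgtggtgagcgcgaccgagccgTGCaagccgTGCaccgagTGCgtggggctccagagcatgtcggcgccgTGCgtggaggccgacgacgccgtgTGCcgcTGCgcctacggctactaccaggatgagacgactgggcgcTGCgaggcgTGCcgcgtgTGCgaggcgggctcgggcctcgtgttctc
The stretch encodes part of the cysteine-rich repeats. No THY1 sequence is shown, because its opposite row touches no coding base.

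The rows of genes held 2507734 and 3524136 counts with FEBJ, 1599000 and 4709317 with cynaroside, and 2537896 and 3720981 with DMSO. These were 5.48 to 6.12% of all counts, and 87.4 to 88.3% fell outside every feature. Of these gene counts, 36.8 to 42.9% entered the opposite-strand reading. The strand setting of the counting step is not stated, so reads from a gene and from an antisense partner cannot be told apart, and a value of THY1 or NGFR in this reading may stand for either.

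NGFR was high in the FEBJ libraries and low in all others. The 2 rows together held 639 and 957 counts with FEBJ, 55 and 118 with cynaroside, and 78 and 130 with DMSO. As CPM, counts over the TMM-scaled library size of the opposite-strand reading times 1e6, the level was 629 and 674 with FEBJ, 82.3 and 60.1 with cynaroside, and 79.4 and 90.6 with DMSO. Both FEBJ libraries lay far above the other 4, and the cynaroside libraries overlapped the DMSO libraries. The group means were 651 ± 32.2 CPM with FEBJ, 71.2 ± 15.7 CPM with cynaroside and 85.0 ± 7.94 CPM with DMSO (SD, n = 2 each).

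The fitted log2 fold change of NGFR was 2.93 ± 0.16 (SE) in FEBJ over DMSO, which is 7.61-fold higher. Over all 1440 genes tested, 70.5% were called in that comparison at an adjusted p of 0.05 or less, 35.9% as higher and 34.6% as lower with FEBJ, and the median log2 fold change was 0.05. In this ranking 47 genes had a higher fold change than NGFR. In FEBJ over cynaroside the log2 fold change was 3.27 ± 0.17, which is 9.66-fold higher, and 37 genes were above it. There 69.5% of genes were called, 35.3% as higher and 34.2% as lower with FEBJ. In cynaroside over DMSO it was -0.34 ± 0.20, with 412 genes lower. There 41.7% of genes were called, 20.2% as higher and 21.5% as lower with cynaroside. That small difference lay within the spread between libraries, and it reversed to 0.13 when the scaling was taken from all deposited rows. Because FEBJ over DMSO and cynaroside over DMSO use the same DMSO libraries, their values are given side by side only.

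THY1 went the other way with FEBJ, by a much smaller amount. THY1-AS1 held 564 and 745 counts with FEBJ, 650 and 1966 with cynaroside, and 855 and 1261 with DMSO. The scaled level was 555 and 525 CPM with FEBJ, 972 and 1001 CPM with cynaroside, and 870 and 879 CPM with DMSO. Group means were 540 ± 21.2 CPM with FEBJ, 987 ± 20.3 CPM with cynaroside and 874 ± 6.20 CPM with DMSO (SD, n = 2 each). The 3 groups did not overlap, with cynaroside highest, DMSO next and FEBJ lowest, and each step in that order was larger than the spread between the 2 libraries of a group. Differences of this kind were common in this reading, where 70.5%, 41.7% and 69.5% of genes were called in FEBJ over DMSO, cynaroside over DMSO and FEBJ over cynaroside.

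The log2 fold change of THY1 was -0.70 ± 0.09 in FEBJ over DMSO, a level 1.62-fold lower, and 396 of the 1440 genes had a lower one. In FEBJ over cynaroside it was -0.88 ± 0.09, which is 1.83-fold lower, with 331 genes lower still. In cynaroside over DMSO it was 0.18 ± 0.09, or 1.13-fold higher, and 527 genes were above it. THY1 thus sat inside the bulk of the genes in all 3 comparisons, whereas NGFR lay near the upper end of both comparisons with FEBJ. Scaling by all deposited rows moved the median log2 fold change of all genes by 0.21 in FEBJ over DMSO and by 0.46 in cynaroside over DMSO, and dropped it by 0.25 in FEBJ over cynaroside. Under it the calls split differently: 608 genes rose and 418 fell in FEBJ over DMSO, 737 rose and 100 fell in cynaroside over DMSO, and 411 rose and 592 fell in FEBJ over cynaroside. Relative to that median, THY1 stood at -0.74, 0.19 and -0.91 in those 3 comparisons and NGFR at 2.88, -0.32 and 3.23. In bulk RNA, a change in the number of cells that carry a transcript cannot be told apart from a change in RNA per cell.

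**Figure D2:**
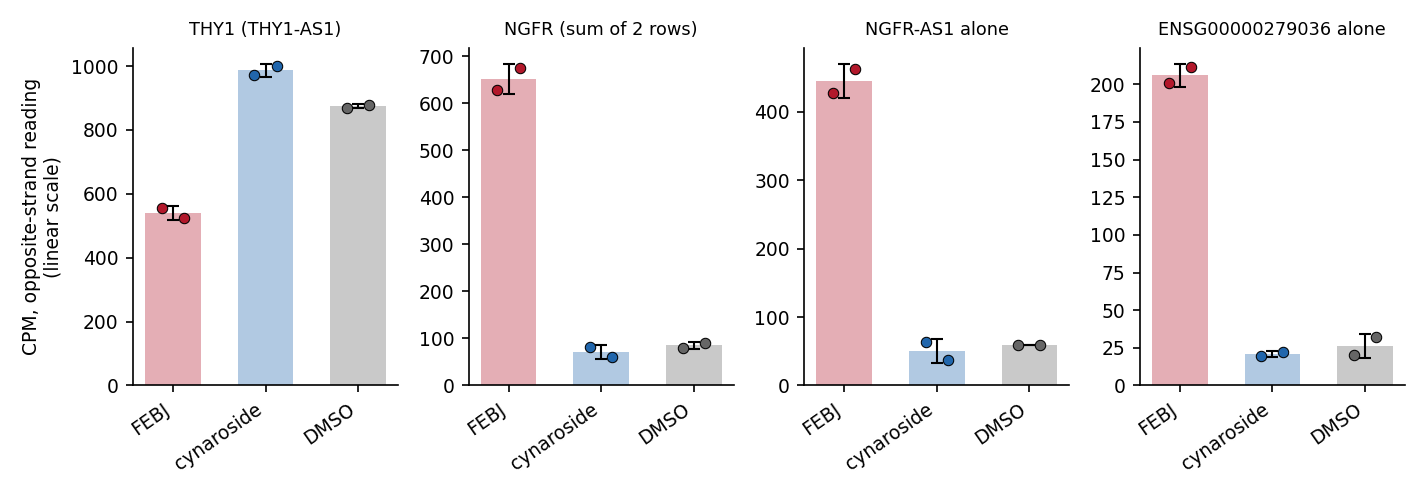
Levels of THY1 and NGFR in the opposite-strand reading, in CPM on the y axis, for FEBJ, cynaroside and DMSO. Points are single libraries, bars the group means and error bars the SD (n = 2); the panels on the right show the 2 NGFR rows apart. The NGFR libraries with FEBJ sit at 629 and 674 CPM, above all 4 others, and THY1 is lowest with FEBJ at 555 and 525 CPM.

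**Figure D3:**
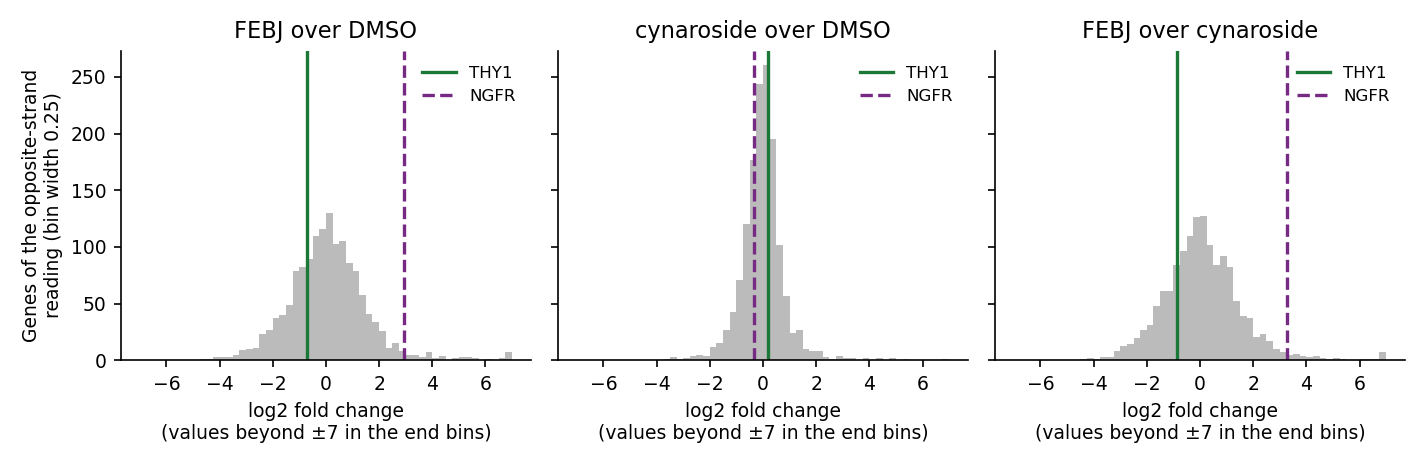
Distribution of log2 fold changes over the 1440 genes tested in the opposite-strand reading, with the place of NGFR and THY1 marked in each comparison. NGFR lies near the upper end in FEBJ over DMSO (2.93) and in FEBJ over cynaroside (3.27), and THY1 lies within the bulk of the genes in each.

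The 2 rows behind NGFR kept the same order of groups with FEBJ above the rest when taken apart. NGFR-AS1 stood at 428 and 463 CPM with FEBJ, 62.8 and 37.7 CPM with cynaroside, and 59.0 and 58.5 CPM with DMSO. ENSG00000279036 held 204 and 300 counts with FEBJ, 13 and 44 with cynaroside, and 20 and 46 with DMSO, with means of 206 ± 7.54 CPM with FEBJ, 20.9 ± 2.09 CPM with cynaroside and 26.2 ± 8.28 CPM with DMSO (SD, n = 2 each). The FEBJ mean was 7.58 times the DMSO mean in NGFR-AS1 and 7.86 times in ENSG00000279036, and 8.86 and 9.84 times the cynaroside mean. NGFR-AS1 supplied 68.1 and 68.7% of the NGFR sum with FEBJ, 76.4 and 62.7% with cynaroside, and 74.4 and 64.6% with DMSO. The 2 rows are not replicates of each other, since they come from the same libraries and lie opposite the same gene.

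Per kb of the rows read, THY1 was the higher of the 2 genes in each of the 6 libraries. THY1 stood at 878 and 830 CPM per kb with FEBJ, 1539 and 1584 with cynaroside, and 1376 and 1390 with DMSO. NGFR, divided by the 4799 bp of its rows, stood at 131 and 140 CPM per kb with FEBJ, 17.1 and 12.5 with cynaroside, and 16.5 and 18.9 with DMSO. Divided only by the 1126 bp opposite NGFR exons, the NGFR values were 558 and 599 with FEBJ, 73.1 and 53.4 with cynaroside, and 70.5 and 80.5 with DMSO. The counts divided were still those of the whole 4799 bp, so these values are not a level per kb of NGFR exon. By either length the gap between the 2 genes was narrowest with FEBJ.

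The genes' own rows held few counts and gave no call. The THY1 row held 10 and 2 counts with FEBJ, 4 and 8 with cynaroside, and 5 and 17 with DMSO, which is 0.268 to 1.77% of the counts of THY1-AS1 in the same libraries. Its log2 fold changes were -0.46 ± 1.08 in FEBJ over DMSO (adjusted p = 0.743 by the quasi-likelihood test of edgeR, with the Benjamini-Hochberg method), -0.38 ± 1.10 in cynaroside over DMSO (adjusted p = 0.804) and -0.09 ± 1.14 in FEBJ over cynaroside (adjusted p = 0.960). The NGFR row held 12 and 17 counts with FEBJ, 0 and 10 with cynaroside, and 3 and 10 with DMSO, at most 8.47% of the opposite rows. Its log2 fold changes were 1.40 ± 1.03 in FEBJ over DMSO (adjusted p = 0.262), -0.19 ± 1.13 in cynaroside over DMSO (adjusted p = 0.910) and 1.59 ± 1.07 in FEBJ over cynaroside (adjusted p = 0.245). With standard errors above 1 on the log2 scale, these rows could not show a difference of the size seen in THY1-AS1, and an adjusted p above the threshold does not show that the groups were alike. Over all 12012 rows tested as deposited, 50.8% were called in FEBJ over DMSO (26.0% rose and 24.8% fell), 45.4% in cynaroside over DMSO (24.3% and 21.1%) and 41.9% in FEBJ over cynaroside (21.5% and 20.4%). Scaled by the opposite-strand reading, these splits were 22.0% and 30.1%, 11.9% and 31.6%, and 27.3% and 16.6%, and the THY1 row in FEBJ over cynaroside reversed to 0.15.

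The ligands and co-receptors of NGFR held few counts in their own rows. Of 11 genes listed, 9 had a count in their own row and 3 could be tested. Only 1 of the 11, BDNF, could be read from an opposite row. For the others a low own row does not show that the gene itself was low. The own row of SORT1, the sortilin co-receptor that binds proneurotrophins together with NGFR, fell with both treatments. It held 8 and 2 counts with FEBJ, 2 and 14 with cynaroside, and 46 and 57 with DMSO, and its log2 fold change was -3.08 ± 0.74 in FEBJ over DMSO (adjusted p = 0.0010) and -2.44 ± 0.71 in cynaroside over DMSO (adjusted p = 0.0065). These SORT1 calls held under each of the alternatives run, scalings included. SORT1 could not be read from an opposite row, so the calls rest on its own row alone.

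NTF3 held 0 and 5 counts with FEBJ, none with cynaroside, and 4 and 2 with DMSO. NTF4 held 6 and 1 counts with FEBJ, 8 and 9 with cynaroside, and 5 and 6 with DMSO. Both ligands were too sparse to be tested. NTRK3 had 2 and 7 counts with DMSO and 0 in the other 4 libraries, and NTRK2 and SORCS3 had 0 in all 6. SORCS1 held 2 and 2 counts with FEBJ, 0 and 1 with cynaroside, and 0 and 0 with DMSO, and SORCS2 held 4 and 6 with FEBJ, 2 and 3 with cynaroside, and 4 and 20 with DMSO.

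BDNF, a ligand of NGFR and of NTRK2, gave opposite directions in its 2 readings. Read from BDNF-AS, it stood at 71.8 and 97.2 CPM with FEBJ, 133 and 217 CPM with cynaroside, and 392 and 431 CPM with DMSO. In that reading it fell in FEBJ over DMSO by 2.26 ± 0.17 on the log2 scale (adjusted p = 1.4e-39) and in cynaroside over DMSO by 1.16 ± 0.15 (adjusted p = 7.9e-13). The own row of BDNF held 41 and 47 counts with FEBJ, 23 and 75 with cynaroside, and 16 and 19 with DMSO. It rose in FEBJ over DMSO by 1.53 ± 0.48 (adjusted p = 0.0089) and in cynaroside over DMSO by 1.77 ± 0.48 (adjusted p = 0.0037). The FEBJ call of the own row ended without FEBJ 1 (adjusted p = 0.057) and without DMSO 2 (0.073). The direction of BDNF with FEBJ thus depends on which row is read. FEBJ and DMSO libraries did not overlap in either reading. Differences were common there, with 70.5% of genes called from opposite rows and 50.8% of rows as deposited.

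Among the adaptors and cleaving proteases of NGFR, 4 of 27 genes could be read from opposite rows. In FEBJ over DMSO 2 rose and 2 fell, with a median log2 fold change of 0.17, beside 70.5% of all genes called. TRAF4, an adaptor that binds the receptor, stood at 670 and 681 CPM with FEBJ, 313 and 321 CPM with cynaroside, and 488 and 460 CPM with DMSO. It rose in FEBJ over DMSO (0.51 ± 0.11, adjusted p = 7.4e-06) and fell in cynaroside over DMSO (-0.57 ± 0.12, adjusted p = 6.9e-06), a fall that was -0.11 and not called with the scaling of all deposited rows (adjusted p = 0.456). PRDM4, a zinc finger protein that binds NGFR, stood at 382 and 416 CPM with FEBJ, 269 and 272 CPM with cynaroside, and 277 and 254 CPM with DMSO, and rose in FEBJ over DMSO (0.59 ± 0.14, adjusted p = 3.4e-05).

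ARHGDIA, an inhibitor of small GTPases that NGFR is known to bind, differed in size between its 2 readings. From the opposite row its log2 fold change was -0.17 ± 0.03 in FEBJ over DMSO and -0.22 ± 0.03 in cynaroside over DMSO, and both passed the test. With the scaling of all deposited rows both reversed, to 0.038 and 0.23. The own row of ARHGDIA held 161 and 141 counts with FEBJ, 51 and 187 with cynaroside, and 404 and 585 with DMSO. It fell in FEBJ over DMSO (-1.47 ± 0.19, adjusted p = 2.5e-07) and in cynaroside over DMSO (-1.75 ± 0.20, adjusted p = 5.4e-08), and both calls held when scaled by the opposite-strand reading (-1.69 and -2.21). ADAM10, a protease that sheds surface proteins, had 12.8 and 10.6 CPM with FEBJ, 35.9 and 52.4 CPM with cynaroside, and 32.6 and 25.8 CPM with DMSO. It fell in FEBJ over DMSO (-1.31 ± 0.50, adjusted p = 0.013), a call that ended without FEBJ 2 (adjusted p = 0.088) and without DMSO 1 (0.084). From the own rows of this list, 17 genes could be tested. None rose and 6 fell in FEBJ over DMSO (median -1.11), and none rose and 7 fell in cynaroside over DMSO (median -1.14), beside medians over all rows of -0.06 and 0.02 and shares that fell of 24.8% and 21.1%. IRAK1, a kinase recruited by the receptor, held 18 and 21 counts with FEBJ, 12 and 35 with cynaroside, and 133 and 234 with DMSO, and fell by 2.99 ± 0.35 in FEBJ over DMSO and by 2.59 ± 0.35 in cynaroside over DMSO on the log2 scale. In FEBJ over cynaroside 2 of the 17 rose, AATF and APH1A, and both calls ended without FEBJ 2. IRAK1, AATF and APH1A could not be read from an opposite row, so their calls rest on their own rows alone.

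The own rows of partners of THY1 and of proteins of its raft signalling were mostly lower with both treatments. As deposited, 17 of 24 genes could be tested. In FEBJ over DMSO 1 rose and 13 fell, with a median of -2.68, and in cynaroside over DMSO none rose and 10 fell, with a median of -1.98. Over all rows 24.8% fell in FEBJ over DMSO and 21.1% in cynaroside over DMSO. ITGB1, the beta subunit of many integrins, held 24 and 20 counts with FEBJ, 34 and 93 with cynaroside, and 426 and 655 with DMSO. Its log2 fold change was -4.39 ± 0.24 in FEBJ over DMSO (adjusted p = 4.5e-15) and -2.73 ± 0.21 in cynaroside over DMSO (adjusted p = 3.7e-11).

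CAVIN1, a coat protein of caveolae, fell by 2.68 ± 0.18 in FEBJ over DMSO and by 1.43 ± 0.19 in FEBJ over cynaroside on the log2 scale. LGALS1, a galectin that binds glycans of surface proteins, held 22 and 31 counts with FEBJ, 17 and 20 with cynaroside, and 153 and 237 with DMSO, and fell by 2.92 ± 0.37 in cynaroside over DMSO. ITGB5 was the 1 gene that rose with FEBJ. It held 89 and 104 counts with FEBJ, 10 and 35 with cynaroside, and 21 and 41 with DMSO, with log2 fold changes of 1.88 ± 0.39 over DMSO (adjusted p = 0.00022) and 2.00 ± 0.41 over cynaroside (adjusted p = 0.00022).

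From opposite rows, 2 of the 24 could be tested and both fell in FEBJ over DMSO, where 34.6% of all genes fell. ITGB1, CAVIN1, LGALS1 and ITGB5 were not among them, so their calls rest on their own rows alone. Own and opposite rows of the same gene can differ, as those of BDNF and ARHGDIA did. ITGAV, the alpha subunit of the integrins that bind THY1, stood at 29.5 and 24.0 CPM with FEBJ, 123 and 125 CPM with cynaroside, and 112 and 179 CPM with DMSO. Its log2 fold change was -2.47 ± 0.26 over DMSO (adjusted p = 1.2e-20) and -2.23 ± 0.26 over cynaroside (adjusted p = 1.6e-16). ADGRE5, the adhesion receptor that binds THY1, stood at 213 and 249 CPM with FEBJ, 281 and 287 CPM with cynaroside, and 454 and 508 CPM with DMSO. It fell in FEBJ over DMSO (-1.05 ± 0.14, adjusted p = 3.0e-14) and in cynaroside over DMSO (-0.76 ± 0.13, adjusted p = 1.2e-07); the cynaroside call missed the threshold when scaled by all deposited rows (-0.30, adjusted p = 0.0524).

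The genes that build and remodel the GPI anchor did not stand out by how many were called, beside 50.8% of all rows in FEBJ over DMSO, 45.4% in cynaroside over DMSO and 41.9% in FEBJ over cynaroside. As deposited, 19 of 33 could be tested; 5 rose and 3 fell in FEBJ over DMSO (median 0.27), 3 rose and 3 fell in cynaroside over DMSO (median -0.56), and 4 rose and 2 fell in FEBJ over cynaroside (median 0.27). Scaled by the opposite-strand reading, 2 instead of 5 rose in FEBJ over DMSO, where 22% of all rows rose. PIGW, which acylates the inositol of the anchor, held 164 and 177 counts with FEBJ, 28 and 138 with cynaroside, and 24 and 19 with DMSO, and rose by 3.18 ± 0.35 in FEBJ over DMSO and by 2.16 ± 0.37 in cynaroside over DMSO. PIGH, a subunit of the enzyme of the first step, rose by 2.06 ± 0.47 in FEBJ over DMSO. PIGF, which takes part in adding ethanolamine phosphate, stood at 105 and 126 CPM with FEBJ, 443 and 468 CPM with cynaroside, and 412 and 474 CPM with DMSO, and fell by 1.94 ± 0.11 in FEBJ over DMSO. These 3 rows lie opposite exons of MYO19, of PLEKHH1 and of RHOQ and CRIPT, so reads of those genes may be in them.

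TMED2, a cargo receptor that helps GPI-anchored proteins leave the endoplasmic reticulum, could be read in both ways. From TMED2-DT it stood at 805 and 804 CPM with FEBJ, and its group means were 804 CPM with FEBJ, 2742 CPM with cynaroside and 1708 CPM with DMSO. In that reading it fell in FEBJ over DMSO (-1.08 ± 0.06) and rose in cynaroside over DMSO (0.68 ± 0.06). In its own row its log2 fold change was -2.96 ± 0.50 in FEBJ over DMSO and -2.19 ± 0.49 in cynaroside over DMSO, and both passed the test, so the cynaroside direction of TMED2 depends on the row. PGAP4, which adds a sugar to the anchor in the Golgi, was read from TMEM246-AS1 and held 7 and 9 counts with FEBJ, 1 and 29 with cynaroside, and 30 and 30 with DMSO. Its log2 fold change in FEBJ over DMSO was -1.93 ± 0.69 (adjusted p = 0.0083), a call that ended without FEBJ 2 (adjusted p = 0.078) and without DMSO 1 (0.13).

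Other surface proteins of fibroblasts and mesenchymal cells, a list of 32 genes without THY1, were mostly lower with FEBJ. From opposite rows, 8 could be tested; 1 rose and 7 fell in FEBJ over DMSO (median -1.698) and also in FEBJ over cynaroside (median -1.69), while 1 rose and 3 fell in cynaroside over DMSO (median -0.47). Scaled by all deposited rows, the cynaroside counts turned to 3 that rose and 1 that fell, and the FEBJ counts stayed at 1 and 7 in both comparisons. Over all genes, scaled by their own reading, 34.6% fell in FEBJ over DMSO, 34.2% in FEBJ over cynaroside and 21.5% in cynaroside over DMSO. With the scaling of all deposited rows, 29%, 41.1% and 6.94% of all genes fell in the same comparisons, and 51.2% rose in cynaroside over DMSO. CSPG4, a proteoglycan of pericytes, stood at 373 and 402 CPM with FEBJ, 1343 and 1466 CPM with cynaroside, and 2012 and 1999.9 CPM with DMSO, and fell by 2.37 ± 0.07 in FEBJ over DMSO. ENG, a co-receptor for TGF-beta, stood at 273 and 257 CPM with FEBJ, 770 and 743 CPM with cynaroside, and 1182 and 1261 CPM with DMSO. It fell by 2.21 ± 0.10 in FEBJ over DMSO and by 0.70 ± 0.09 in cynaroside over DMSO on the log2 scale.

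MRC2, a receptor that takes up collagen, had the same order of groups as THY1. It stood at 412 and 435 CPM with FEBJ, 1598 and 1698 CPM with cynaroside, and 994 and 943 CPM with DMSO, and it fell in FEBJ over DMSO (-1.19 ± 0.08) and rose in cynaroside over DMSO (0.77 ± 0.08). ITGA1, a collagen-binding integrin subunit, was the 1 gene of the 8 that rose with FEBJ, as NGFR was higher. It held 94 and 130 counts with FEBJ, 8 and 40 with cynaroside, and 35 and 32 with DMSO (log2 fold change 1.696 ± 0.339 in FEBJ over DMSO, adjusted p = 1.4e-06). It was read from ITGA2-AS1, a row named for a neighbouring integrin gene, so its gene of origin is uncertain.

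In the own rows of the same list, 23 could be tested, of which 4 rose and 12 fell in FEBJ over DMSO (median -1.64) and 1 rose and 11 fell in cynaroside over DMSO (median -1.18), where 24.8% and 21.1% of all rows fell. NCAM1, a neural adhesion molecule that stellate cells can carry, held 36 and 67 counts with FEBJ, 5 and 9 with cynaroside, and 0 and 4 with DMSO, and rose in FEBJ over DMSO (4.81 ± 0.84, adjusted p = 2.1e-05). CD44, the hyaluronan receptor, held 20 and 32 counts with FEBJ, 12 and 14 with cynaroside, and 121 and 218 with DMSO, and fell by 3.22 ± 0.41 in cynaroside over DMSO. Read from CD44-AS1, CD44 held 1000 and 1303 counts with FEBJ, 1197 and 3486 with cynaroside, and 1853 and 2718 with DMSO, with a log2 fold change of -0.08 ± 0.06 in cynaroside over DMSO (adjusted p = 0.269). LRP1, an endocytic receptor, fell by 3.46 ± 0.46 in FEBJ over DMSO and, read from LRP1-AS, fell by 4.10 ± 0.34, and the adhesion molecule ALCAM fell by 4.21 ± 0.63 in cynaroside over DMSO. ITGA2, an alpha subunit that binds collagen, was the 1 gene that rose in cynaroside over DMSO (2.35 ± 0.41, adjusted p = 3.4e-05). CD151, a tetraspanin, was called higher in FEBJ over DMSO (0.98 ± 0.32, adjusted p = 0.013) in a row that lies opposite POLR2L exons, but not without FEBJ 1 (adjusted p = 0.14) or without DMSO 2 (0.094).

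**Figure D4:**
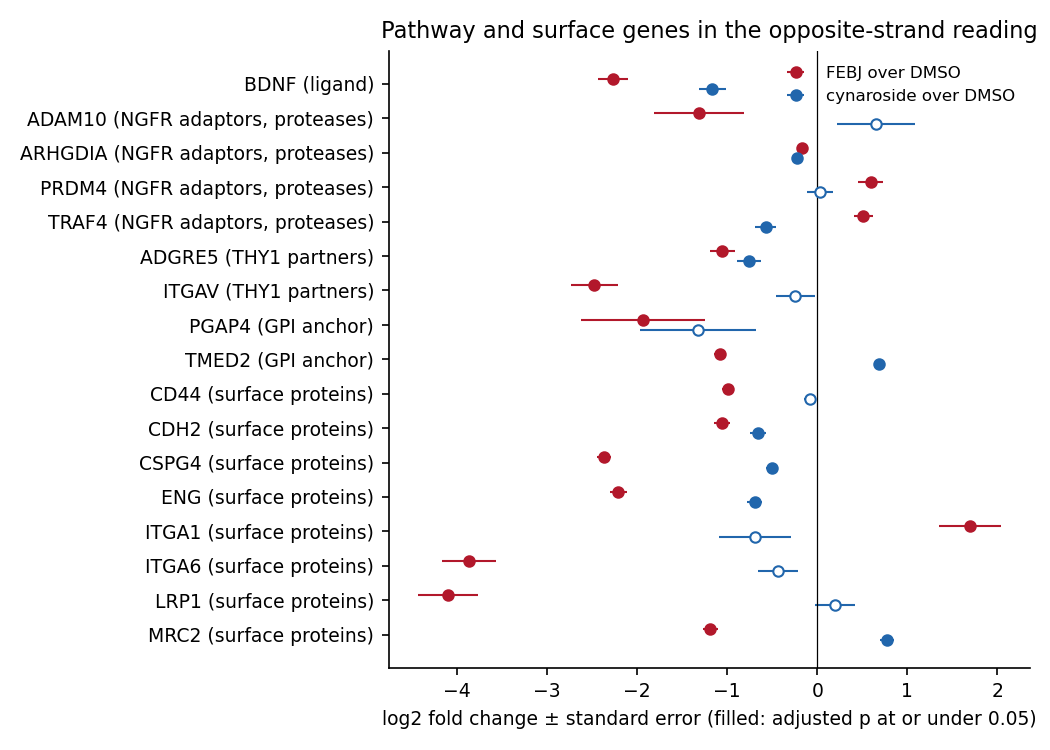
Log2 fold changes (x axis, with standard errors) of the tested members of the lists around THY1 and NGFR in the opposite-strand reading, for FEBJ over DMSO and cynaroside over DMSO. Filled points have an adjusted p of 0.05 or less. With FEBJ, TRAF4, PRDM4 and ITGA1 lie above 0 and the other 14 genes lie under it.

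Markers of stellate cells were present, with gaps. In the own rows, 26 of 29 markers other than NGFR had a count, and DES, LRAT and HGF had none. Their summed level was 946 to 949 CPM with FEBJ, 1493 to 1608 CPM with cynaroside and 2185 to 2200 CPM with DMSO, with TGFB1 the highest, a row that lies opposite HNRNPUL1 exons. Not every marker has a row in the opposite-strand reading, so a marker left out of it is not shown to be absent. From opposite rows, 11 of 29 had a count, DES among them. Their sum was 71198 to 71615 CPM with FEBJ, 108064 to 108549 CPM with cynaroside and 138593 to 139057 CPM with DMSO, most of it VIM, the intermediate filament of mesenchymal cells. In that reading 2 of the 10 tested rose and 6 fell in both comparisons with DMSO. Of all genes, 35.9% rose and 34.6% fell in FEBJ over DMSO, and 20.2% and 21.5% in cynaroside over DMSO. Scaled by all deposited rows, 3 rose and 6 fell in FEBJ over DMSO, but 4 rose and 1 fell in cynaroside over DMSO, and VIM reversed to 0.11 there. Under that scaling 42.2% of all genes rose and 29% fell in FEBJ over DMSO, and 51.2% and 6.94% in cynaroside over DMSO. The summed stellate markers were lowest with FEBJ, as THY1 was, and NGFR was highest there.

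Markers of portal fibroblasts other than THY1 had low sums in their own rows. In the opposite-strand reading, from which THY1 was taken, 0 of the 16 had a row, so their levels cannot be set beside that of THY1. In the own rows 10 of 16 had a count, with sums of 14.3 to 21.0 CPM with FEBJ, 39.1 to 45.9 CPM with cynaroside and 53.7 to 64.0 CPM with DMSO. MFAP4 was the highest, and MGP, CD34, DCN, LUM, MFAP5 and DPT were at 0. Markers of Schwann and neural crest cells, which also carry NGFR, summed to 12.8 to 16.7 CPM with FEBJ, 19.9 to 23.9 CPM with cynaroside and 33.1 to 37.1 CPM with DMSO in 6 of 10 own rows. L1CAM was the highest of these, S100B, CDH19 and ERBB3 were at 0, and the sum was lower with FEBJ, where NGFR was higher. In the opposite-strand reading only 2 of the 10 had a row. PMP22, a myelin protein, was the highest and fell in FEBJ over DMSO (-1.76 ± 0.25, adjusted p = 1.2e-11).

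Among markers of other cells, the epithelial sum from opposite rows and the hepatocyte and leukocyte sums from own rows were highest with FEBJ, as NGFR was. The epithelial and endothelial sums from own rows were lowest there. The own rows of the hepatocyte, leukocyte and endothelial lists held at most 43, 44 and 38 counts in a library, so their sums lie near the floor. Epithelial markers read from opposite rows, 2 of 8, summed to 877 to 1040 CPM with FEBJ, 56.0 to 92.7 CPM with cynaroside and 155 to 167 CPM with DMSO. Nearly all of this was KRT7, a keratin of bile ducts, read from KRT7-AS, which rose in FEBJ over DMSO (2.57 ± 0.13, adjusted p = 1.6e-79) and fell in cynaroside over DMSO (-1.24 ± 0.17, adjusted p = 7.3e-12). In the own rows 6 of 8 epithelial markers summed to 114 to 135 CPM with FEBJ, 147 to 167 CPM with cynaroside and 141 to 150 CPM with DMSO, with EPCAM and KRT19 at 0 and KRT18 the highest. Hepatocyte markers, 5 of 12, summed to 12.2 to 13.5 CPM with FEBJ, 0 to 2.02 CPM with cynaroside and 0.486 to 0.707 CPM with DMSO, with SERPINA1 the highest and ALB at 0. Macrophage and leukocyte markers, 7 of 12, summed to 10.3 to 12.5 CPM with FEBJ, 4.54 to 6.86 CPM with cynaroside and 2.19 to 3.89 CPM with DMSO, with CSF1R the highest and PTPRC at 0. Endothelial markers, 5 of 9, summed to 5.96 to 6.76 CPM with FEBJ, 9.07 to 9.61 CPM with cynaroside and 8.48 to 9.24 CPM with DMSO, with STAB2 the highest and PECAM1 at 0. Whether these markers have a part in the NGFR values was not tested.

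The genes whose pattern over the 6 libraries was nearest to each of the 2 were found among 894 genes of the opposite-strand reading with a mean of at least 100 CPM. Nearness was the root mean square difference of log2 CPM, each gene centred on its own mean. Among the 5 nearest to THY1 were PYCR1 (0.0485), MELTF (0.0551), GPAT4 (0.0666) and CDH13 (0.0782). PYCR1, an enzyme of proline synthesis, stood at 578 and 553 CPM with FEBJ, 962 and 1100 CPM with cynaroside, and 938 and 946 CPM with DMSO. For NGFR they were THADA (0.134), NVL (0.213), KLF11 (0.221), EMC9 (0.252) and ISL2 (0.252). THADA stood at 475 and 480 CPM with FEBJ, 74.8 and 51.4 CPM with cynaroside, and 60.0 and 64.1 CPM with DMSO. These genes share libraries and scaling with THY1 and NGFR, and the search chose them for likeness, so these values only describe the patterns.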

How the data were processed

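The authors deposited raw counts per gene for each of 6 libraries; per the submitters' processing notes, CASAVA 1.7, HISAT2, HTSeq 0.12.4, DESeq2 1.38.0 and the hg19 build were used, and the strand setting, kit and annotation are not given in the sources used here. Summary rows, with 87.4 to 88.3% of counts in the no-feature row, were left out. Exon overlaps came from GENCODE release 29 on GRCh38, which held 58261 of the 62754 rows and was not reconciled with hg19; symbols matched 62700 rows. In the opposite-strand reading, 1825 non-coding rows that lie opposite exons of exactly 1 gene, a protein-coding one, and hold at least as many counts as its own row were summed to 1696 genes. Both readings were fitted with edgeR 4.0.16 (R 4.3.3): filterByExpr, TMM, 3 group means, 3 residual degrees of freedom, the quasi-likelihood test and Benjamini-Hochberg adjustment at 0.05. CPM were computed over TMM library sizes. Replicates differed by more than sampling noise (mean chi-square per row 3.03 to 3.19). THY1, NGFR and the gene lists were chosen with earlier results of these data known. Per list, comparison and reading, at most 2 genes that rose and 2 that fell could be named, by smallest p among means of at least 5 CPM, with the highest marker of each cell type and the neurotrophin genes with a count; a few items the rule would name are not reported here. Alternatives were RLE and upper-quartile scaling, other filters and overlaps, scaling by all deposited rows, adding own rows, DESeq2 1.42.0, a replicate block, leaving out each library and only the 4 libraries compared; splitting the NGFR rows and exchanging the scalings of the 2 readings for the lists were added after seeing the data. The scripts were tested on simulated data.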

Additional observations from a re-analysis of the deposited data

How the results depend on the processing

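THY1 kept its direction under all 18 alternatives, with log2 fold changes of -0.79 to -0.48 in FEBJ over DMSO, 0.15 to 0.64 in cynaroside over DMSO and -1.12 to -0.83 in FEBJ over cynaroside. NGFR ranged over 20 alternatives from 2.78 to 3.14, from -0.49 to 0.13 and from 2.97 to 3.39 in the same comparisons. Scaling by all deposited rows gave THY1 -0.48, 0.64 and -1.12 and NGFR 3.14 in FEBJ over DMSO and, reversed, 0.13 in cynaroside over DMSO. Upper-quartile scaling gave THY1 -0.77 in FEBJ over DMSO and -0.96 in FEBJ over cynaroside, and an overlap of 200 bp gave -0.76 and -0.96. Opposite rows plus the own row gave THY1 -0.79, 0.21 and -1.003. Leaving out 1 library at a time gave THY1 0.15 to 0.22 in cynaroside over DMSO and -0.94 to -0.83 in FEBJ over cynaroside.

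The own row of THY1 ranged from -2.31 to 0.37 in FEBJ over DMSO, from -0.84 to 0.39 in cynaroside over DMSO and from -1.95 to 0.77 in FEBJ over cynaroside when 1 library was left out, and that of NGFR from 0.95 to 2.12 in FEBJ over DMSO (2.12 without DMSO 2), from -5.40 to 0.51 in cynaroside over DMSO and from 0.86 to 6.81 in FEBJ over cynaroside (6.81 without cynaroside 2, 0.86 without cynaroside 1). With only 4 libraries compared, 3 of these values could not be had because the row did not pass the filter.

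No pairing of the libraries by replicate number was seen: correlations of same-numbered deviations were -0.00700, -0.0125 and 0.00133. Noise in rows of low count can hide such a correlation, so these values cannot exclude a pairing. With the replicate block, NGFR was at 2.93 and THY1 at -0.70 in FEBJ over DMSO.

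Over the 5 lists around the 2 genes, with 3, 17, 17, 19 and 23 own rows tested, 12 rose in FEBJ over DMSO. With 1 library left out, 7 to 13 rose (7 without FEBJ 1 and without DMSO 2) and 28 to 38 fell. In FEBJ over cynaroside 11 rose. With 1 library left out, 6 to 11 rose there (6 without FEBJ 2, 7 without cynaroside 1) and 8 to 11 fell. Over all rows 26.0% rose and 24.8% fell in FEBJ over DMSO, and 21.5% and 20.4% in FEBJ over cynaroside. From opposite rows scaled by all deposited rows, 7 instead of 2 rose and 2 instead of 7 fell in cynaroside over DMSO. Over all genes, 51.2% instead of 20.2% rose there and 6.94% instead of 21.5% fell. Under that scaling ARHGDIA (0.038 in FEBJ over DMSO, 0.23 in cynaroside over DMSO) and VIM (0.11 in cynaroside over DMSO) reversed. Own rows scaled by the opposite-strand reading had 3 instead of 5 rises in cynaroside over DMSO, where 11.9% instead of 24.3% of all rows rose. Under that scaling THY1 (0.15) and BDNF (0.0013) in FEBJ over cynaroside reversed, neither of them called. Counts of single lists moved by over 1.5 times in 62 of 840 alternative counts, by 1 to 4 genes. SORT1 in FEBJ over cynaroside, which was not called, reversed without FEBJ 2 and without cynaroside 2 (-2.20 to 0.33 over all libraries left out). The low counts of the own rows of THY1 and NGFR, at most 17 in a library, limit what they can show.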
